A study of Mus musculus with 6 samples.

Results

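The comparison described here is Rbbp4 overexpression (Rbbp4 OE) against control in 46C mouse embryonic stem cells (mESCs), a cultured pluripotent line grown in serum with LIF and the inhibitors Chir99021 and PD0325901. Every line carried a lentiviral birA biotin ligase (BirAV5, selected with blasticidin) and a second lentivirus selected with puromycin. That second vector held the FLAG-Avitag alone in the control, labelled as expressing the biotin tag alone, and the tag fused to Rbbp4 in Rbbp4 OE or to Rbbp7 in Rbbp7 OE. By the study's methods each line was a drug-selected pool after infection, with the endogenous Rbbp4 and Rbbp7 genes in place. Poly(A) RNA was sequenced from 2 libraries of each group, and the labels do not say whether replicates were separate cultures, so p-values measure only the spread between these libraries.

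The genes described were protein-coding genes whose longest transcript exceeds 300 nucleotides (nt) and whose mean over the 6 libraries was at least 0.5 TPM, a length-scaled share of all transcripts. Of 21771 such genes in the tables, 12384 passed this filter, and the other 9387 did not and were not tested. They were fitted together with every other gene at that level, 14156 of 55401 genes in all. All 21771 protein-coding genes over 300 nt, whether or not they passed the filter, held between 85.2% and 86.5% of all TPM in each library. Between 15099 and 15508 protein-coding genes over 300 nt were above 0 TPM in each library, and sequencing depth is unknown because TPM does not keep it.

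RBBP4 is a WD40-repeat histone chaperone that binds histones H3 and H4. It is a shared subunit of several chromatin complexes, among them the NuRD remodeling and deacetylase complex, the Polycomb repressive complex PRC2, the SIN3 deacetylase complex, the nucleosome assembly factor CAF-1 and the MuvB core that represses cell cycle genes. RBBP7 is its close homolog and sits in many of the same complexes. These complexes mostly repress or remodel chromatin, and in mESCs they are known for roles in silencing lineage genes, repeats and genes outside the pluripotent program.

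Rbbp4 itself (GRCm38 chromosome 4, 129307100 to 129335370, minus strand) had 146 and 147 TPM in the controls, 270 and 271 TPM with Rbbp4 OE and 144 and 143 TPM with Rbbp7 OE. Both Rbbp4 OE libraries therefore lay above all others. By the study's methods the vector held an Rbbp4 cDNA. The TPM of the gene does not separate vector transcripts from endogenous ones, so the change is that of both together. The log2 fold change, on the log2(TPM + 1) scale used throughout, was 0.88 (SE 0.046, limma adjusted p = 0.00173), a 1.84-fold increase. Its homolog Rbbp7 had 239 and 237 TPM in the controls and 208 and 217 TPM with Rbbp4 OE, a difference of -0.16 that missed the threshold (limma adjusted p = 0.0775). The reference gene Gapdh differed by -0.10 (limma adjusted p = 0.0899), a value that became 0.0057 under median-of-ratios scaling.

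The cells carried the markers of their label. Each of the 6 mESC markers was at 141 TPM or more in every library, with Pou5f1 between 1455 and 1816 TPM. The primitive endoderm markers summed to 0.44 to 0.94 TPM in the 4 libraries compared and the neural markers to 1.00 to 1.67 TPM. The trophoblast markers summed to 3.43 to 6.97 TPM, most of it Cdx2. The feeder fibroblast markers summed to 4.48 and 5.59 TPM in the controls and to 9.09 and 11.3 TPM with Rbbp4 OE. Nearly all of that was Thy1, which rose by 0.96 (limma adjusted p = 0.0192), while Postn and Twist2 were listed at 0 in those 4 libraries and each collagen stayed under 0.5 TPM. Their part in the other results was not tested.

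One library of each overexpression line stood apart by genes far above their level in every other library. In Rbbp4 OE replicate 2, 37 protein-coding genes reached at least 5 TPM and at least 10 times every other library, against 0 and 1 genes in the controls and 1 in Rbbp4 OE replicate 1. They were mostly plasma proteins made by the liver. Saa1, an acute-phase protein, was at 132 TPM there and listed at 0 in the other 5 libraries, and albumin (Alb) was at 87.4 TPM against 0.28 TPM or less. In a list of 27 plasma protein and liver genes, chosen after these values were seen, 26 were highest in that library and the sum was 1211 TPM against 74.4 to 101 TPM in the others. In Rbbp7 OE replicate 1, 26 other genes stood out in the same way, led by S100a6 (120 TPM) and Anxa2 (100 TPM). These genes held 0.127% and 0.0579% of the TPM of their libraries. None of them passed the test in Rbbp4 OE, but their choice for a wide gap between replicates made a pass unlikely. They were chosen after their values were seen, and their part in the other results was not tested. Without Rbbp4 OE replicate 2, all 53 genes called below had the same sign and 51 were still over 2-fold, but only 9 had a limma adjusted p under 0.05.

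Rbbp4 OE differed from control by modest changes in many genes. Of the 12384 genes, 397 rose (3.21%) and 1112 fell (8.98%) at a limma adjusted p under 0.05, and these are the shares against which the gene lists below are read. Most changes were small: 220 of the genes that rose and 614 of those that fell changed by under 1.5-fold. The stricter rule, an adjusted p under 0.01 and a fold over 2, called 53 genes (0.428%), of which 17 were higher (0.137%) and 36 lower (0.291%). The median over all 12384 genes was -0.09, with quartiles of -0.31 and 0.12. The tilt towards lower values depended on the scaling. Higher genes were 26.3% of those that passed with TPM as deposited, 48.0% with median-of-ratios scaling (638 that rose and 690 that fell) and 43.4% with quantile normalization.

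The number of calls rested on having all 6 libraries. It was 0 without either control library, without Rbbp4 OE replicate 2 or without either Rbbp7 OE library, and 16 without Rbbp4 OE replicate 1, of which 1 was shared with the 53. In those fits between 2603 and 4254 genes had an unadjusted p under 0.05. The genes that rose then numbered 10 to 296 and those that fell 9 to 1171, with the lowest of both without Rbbp4 OE replicate 2. All 53 called genes had the same sign in each of these 6 fits. They were chosen for a fold over 2 on these same libraries, so that count could hardly come out otherwise. Leaving out an Rbbp7 OE library does not alter the difference between Rbbp4 OE and control at all.

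**Figure D1:**
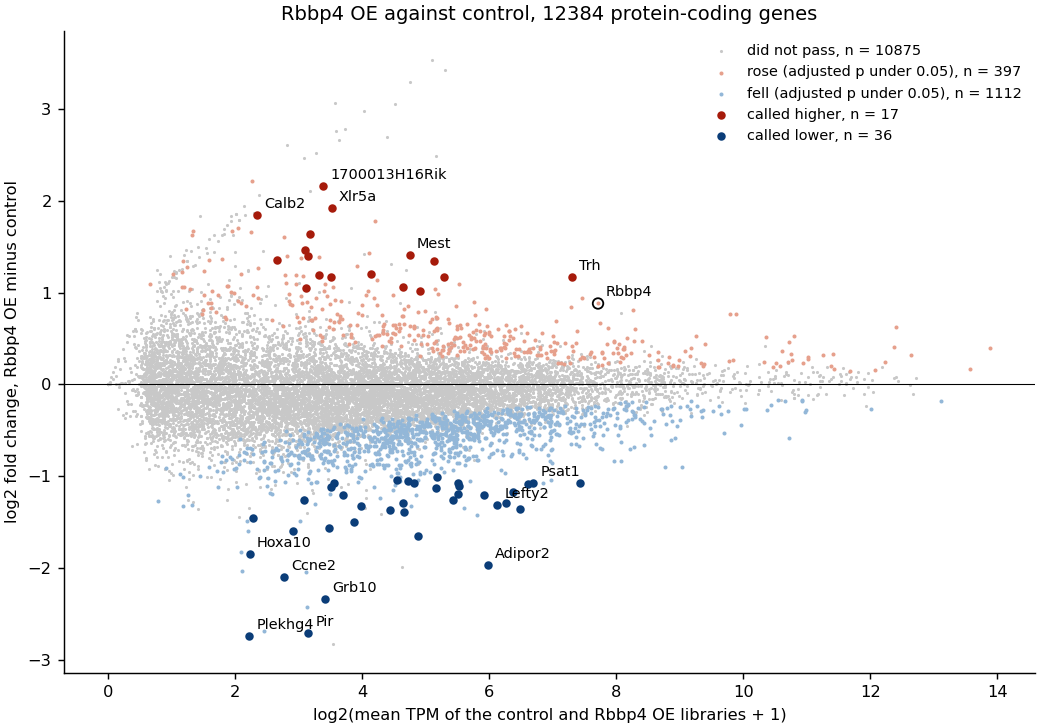
Log2 fold change of Rbbp4 OE minus control (y axis) against the log2 of the mean TPM of the 4 libraries plus 1 (x axis) for 12384 protein-coding genes, 1 point per gene, with genes that rose or fell at a limma adjusted p under 0.05 in pale color and the 17 higher and 36 lower calls in dark color. Rbbp4 is circled at 0.88, and the grey points above 2 are genes such as Saa1 that were high only in Rbbp4 OE replicate 2.

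The called increases included genes of several unrelated functions, and the largest lay on the X chromosome. 1700013H16Rik (X, 53742901 to 53757831), a gene with no established function, had 2.91 and 2.75 TPM in the controls, 15.1 and 17.1 TPM with Rbbp4 OE and 4.87 and 3.88 TPM with Rbbp7 OE. Its log2 fold change was 2.15 (SE 0.15, limma adjusted p = 0.00348). Only the Rbbp4 OE libraries were this high. Calb2, the calcium-binding protein calretinin, was at 1.63 and 0.85 TPM in the controls and at 6.65 and 7.14 TPM with Rbbp4 OE, a rise of 1.84 (limma adjusted p = 0.00985). Trh, the precursor of thyrotropin-releasing hormone, was the most abundant of the called increases, with 96.9 and 94.8 TPM in the controls and 221 and 213 TPM with Rbbp4 OE, and it rose by 1.17 (SE 0.062, limma adjusted p = 0.00173).

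Further called increases included genes of adhesion, signaling and the extracellular matrix. Sdc4, a cell-surface proteoglycan, rose by 1.20, the adaptor Grb7 by 1.19 and Serpinh1, the collagen chaperone HSP47, by 1.16. Khdc3, a component of the subcortical complex of oocytes and early embryos, rose by 1.34, from 20.3 and 17.4 TPM to 46.5 and 52.2 TPM. The calcium-binding protein Tesc rose by 1.40, Arhgdig, an inhibitor of small GTPases, by 1.36, and Naprt, an enzyme of NAD synthesis, by 1.17. In Rbbp7 OE against control, Sdc4, Grb7, Khdc3, Tesc and Arhgdig were also higher at a limma adjusted p under 0.05. Serpinh1 and Naprt did not pass there.

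Among the called decreases, the greatest changes reached levels near 0. Plekhg4, a guanine nucleotide exchange factor (chromosome 8, 105373274 to 105382862), had 6.57 and 7.60 TPM in the controls and 0.10 and 0.33 TPM with Rbbp4 OE. It fell by 2.74 on the log2 scale (SE 0.21, limma adjusted p = 0.00470). With Rbbp7 OE it had 0.59 and 0.38 TPM, a log2 fold change of -2.445. Pir, which encodes the iron-binding nuclear protein pirin, had 13.1 and 15.7 TPM in the controls, 1.47 and 1.23 TPM with Rbbp4 OE and 6.31 and 6.27 TPM with Rbbp7 OE. It fell by 2.71 (SE 0.15, limma adjusted p = 0.00181), and its Rbbp7 OE libraries lay between the others. Adipor2, an adiponectin receptor, was an abundant example, with 95.1 and 103 TPM in the controls and 24.2 and 24.9 TPM with Rbbp4 OE. It fell by 1.97 (SE 0.075), with the smallest limma adjusted p of the 53 (0.000752). With Rbbp7 OE it had 30.6 and 31.6 TPM, a log2 fold change of -1.64.

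The other large decreases covered signaling, ubiquitin and lipid genes. Klhl13, a substrate adaptor of a CUL3 ubiquitin ligase, fell by 1.65, from 39.8 and 47.4 TPM to 12.3 and 14.1 TPM, and the deubiquitinase Usp46 fell by 1.50. Lpcat1, which remodels phosphatidylcholine, fell by 1.39, the membrane scramblase-family gene Ano9 by 1.60 and the retinoid-binding gene Rlbp1 by 1.57. The chaperone regulator Bag2 had 6.24 and 5.98 TPM in the controls, 1.38 and 1.82 TPM with Rbbp4 OE and 5.98 and 5.34 TPM with Rbbp7 OE, and fell by 1.46. The transcription factor Msc and the Rab GTPase regulator Tbc1d13 each fell by 1.36. Of the 53 called genes, 15 overlap the span of another tested gene, among them Mest, Ccne2, Naprt and Arhgdig, and whether the counting used strand is not given in the sources used here.

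**Figure D2:**
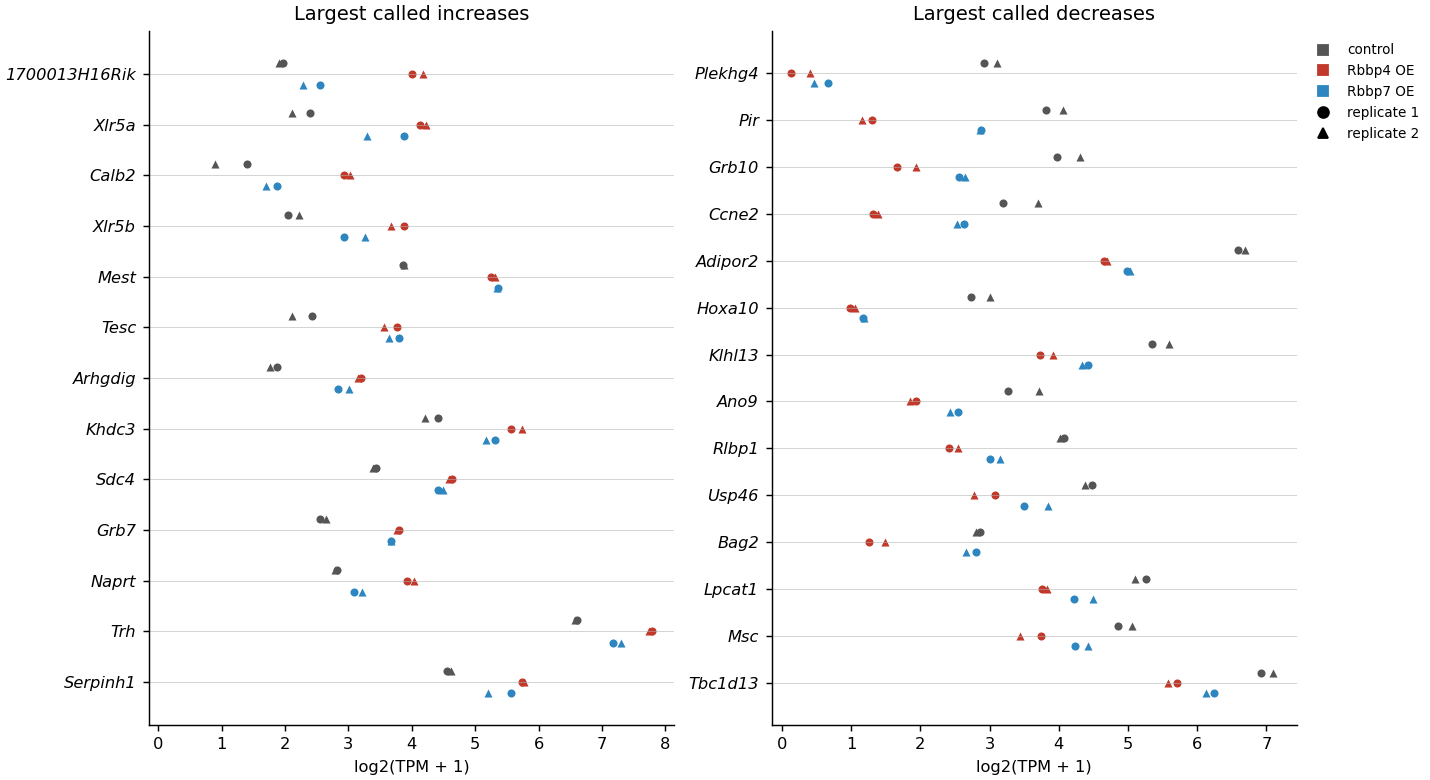
Level of 13 of the 14 largest called increases (left) and of the 14 largest called decreases (right) in each library, as log2(TPM + 1) on the x axis, with circles for replicate 1 and triangles for replicate 2 of control (grey), Rbbp4 OE (red) and Rbbp7 OE (blue). The Rbbp4 OE points lie apart from the control points for every gene, and most Rbbp7 OE points lie between them. These genes were chosen for their difference in these same libraries, which fixed that separation and tilts the place of the Rbbp7 OE points. Over all 12384 genes, the Rbbp4 OE and control libraries did not overlap in 60.55%.

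The Xlr genes were raised as a group. This X-linked, lymphocyte-regulated family has a SYCP3-like domain, and several members are imprinted or expressed in germ cells. Of its 10 members, all of which passed the filter, 8 rose and 0 fell, against 3.21% and 8.98% of all genes, and the list median was 1.02 against -0.09. Xlr5a had 4.28 and 3.31 TPM in the controls, 16.5 and 17.6 TPM with Rbbp4 OE and 13.7 and 8.76 TPM with Rbbp7 OE, a rise of 1.92 (SE 0.22, limma adjusted p = 0.00932). Xlr5b went from 3.14 and 3.64 TPM to 13.6 and 11.7 TPM, a rise of 1.64 (limma adjusted p = 0.00797). Xlr3c, the most precisely measured, went from 15.0 and 15.3 TPM to 31.6 and 33.8 TPM and rose by 1.06 (SE 0.089, limma adjusted p = 0.00536). Xlr3b rose by 1.02 (limma adjusted p = 0.0137). Xlr itself (0.18) and Xlr4a (0.35) did not pass, and when 1 library was left out 0 to 5 members rose.

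Apart from Xlr, these genes lie in 1 cluster of near-identical copies on the X chromosome and the span of Xlr5a covers several others, so the split of reads between them is uncertain and the 8 are not independent of each other. The family sum avoids that split: it was 80.5 and 78 TPM in the controls, 166 and 165 TPM with Rbbp4 OE and 131 and 129 TPM with Rbbp7 OE. To show how close the copies are, the 250 bases before the RefSeq starts of Xlr5a (GRCm38.p6 chrX:73117703-73117952, minus strand) and Xlr5b (chrX:73148591-73148840, plus strand) are given 5′ to 3′, with the longest run that the genes share, 205 bases, in capitals.
Xlr5a: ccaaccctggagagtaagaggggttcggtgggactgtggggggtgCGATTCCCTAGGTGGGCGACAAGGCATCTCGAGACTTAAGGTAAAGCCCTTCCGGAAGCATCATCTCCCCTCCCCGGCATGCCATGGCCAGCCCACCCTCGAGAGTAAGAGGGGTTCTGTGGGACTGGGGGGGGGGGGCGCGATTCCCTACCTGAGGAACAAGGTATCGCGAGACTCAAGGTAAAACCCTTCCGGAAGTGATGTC
Xlr5b: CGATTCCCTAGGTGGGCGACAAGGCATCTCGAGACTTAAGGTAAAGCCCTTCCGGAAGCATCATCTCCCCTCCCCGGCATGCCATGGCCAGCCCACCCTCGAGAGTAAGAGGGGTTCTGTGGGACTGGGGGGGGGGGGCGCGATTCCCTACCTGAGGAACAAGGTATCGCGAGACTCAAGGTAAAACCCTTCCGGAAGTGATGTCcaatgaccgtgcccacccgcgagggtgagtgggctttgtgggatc

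Genes of cholesterol synthesis and uptake were lower together. These genes build sterols from acetyl units or take them up, and SREBP2 induces them when sterols are low. Of the 23 tested, 10 fell and 0 rose, and 20 had a negative value, with a list median of -0.39 against -0.09 for all genes. Idi1, which isomerizes isopentenyl diphosphate, had 60.7 and 63.5 TPM in the controls, 27.3 and 26 TPM with Rbbp4 OE and 43.5 and 43.1 TPM with Rbbp7 OE, a fall of 1.19 (SE 0.071, limma adjusted p = 0.00244). Both Idi1 controls lay above the other 4 libraries, and both Rbbp4 OE libraries lay below. The mevalonate-step enzymes Mvd and Pmvk each fell by 0.61 (limma adjusted p = 0.00949 and 0.0106). Msmo1, Insig1, Lss, Stard4 and Sqle also passed and fell by 0.32 to 0.76 (named after their values were seen). Srebf2, the regulator, was at 117 and 132 TPM in the controls and 110 and 121 TPM with Rbbp4 OE (-0.11, limma adjusted p = 0.451), a gene also named after its values were seen. With median-of-ratios scaling 6 of the 23 fell and 1 rose, and when any 1 library was left out 1 to 11 fell.

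The promoters of the cholesterol list were searched for short motifs. Of its 23 genes 16 had an entry among the RefSeq promoters, and all 16 held the letters CCAAT, the box bound by NF-Y, on either strand in the 250 bases before a start. The same letters were in 41.2% of the 9734 tested genes with an entry and in 33.8% of all 32851 promoters, and in 39.7% of the genes that fell anywhere. They were also in 80% of the Xlr promoters and in 68.4% of those of the replication licensing list, so they were not particular to the cholesterol list. The letters TCACNCCAC, a sterol response element, were in 1 of the 16 and in 1.28% of the tested genes. These motifs do not overlap, the search was chosen after the list's values were seen, and a match is a description of the letters only. Idi1 (chr13:8885356-8885605, plus strand) and Mvd (chr8:122443423-122443672, minus strand) are shown as the members with the smallest p-values that had an entry, with CCAAT or its reverse complement in capitals.
Idi1: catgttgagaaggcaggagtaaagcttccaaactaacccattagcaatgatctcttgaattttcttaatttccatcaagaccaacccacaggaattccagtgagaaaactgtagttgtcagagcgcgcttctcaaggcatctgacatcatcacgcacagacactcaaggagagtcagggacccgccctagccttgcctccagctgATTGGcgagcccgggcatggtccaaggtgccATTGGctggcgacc
Mvd: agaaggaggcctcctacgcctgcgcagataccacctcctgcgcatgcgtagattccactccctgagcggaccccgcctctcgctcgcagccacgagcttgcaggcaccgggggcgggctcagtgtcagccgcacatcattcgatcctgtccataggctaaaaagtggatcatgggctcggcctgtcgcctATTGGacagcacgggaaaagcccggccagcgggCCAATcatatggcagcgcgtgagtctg

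Of the 11 mitochondrially encoded proteins tested, 8 rose and 0 fell, with a list median of 0.39, and when 1 library was left out 0 to 5 rose. mt-Cytb, a subunit of complex III, had 4284 and 4264 TPM in the controls, 6599 and 6609 TPM with Rbbp4 OE and 6142 and 6048 TPM with Rbbp7 OE, a rise of 0.63 (SE 0.029, limma adjusted p = 0.00161). mt-Co1 of complex IV rose by 0.39, a value of 0.12 that no longer passed with quantile normalization (limma adjusted p = 0.334), and mt-Nd5 of complex I by 0.52. mt-Nd3 was the only member with a negative value (-0.20, limma adjusted p = 0.356; named after its values were seen). All mitochondrial transcripts together were 8.97% and 9.78% of TPM in control and 10.4% and 9.89% in Rbbp4 OE. The nuclear genes of the respiratory chain did not follow: of 86 tested, 3 rose and 6 fell, at a median of 0.04.

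**Figure D3:**
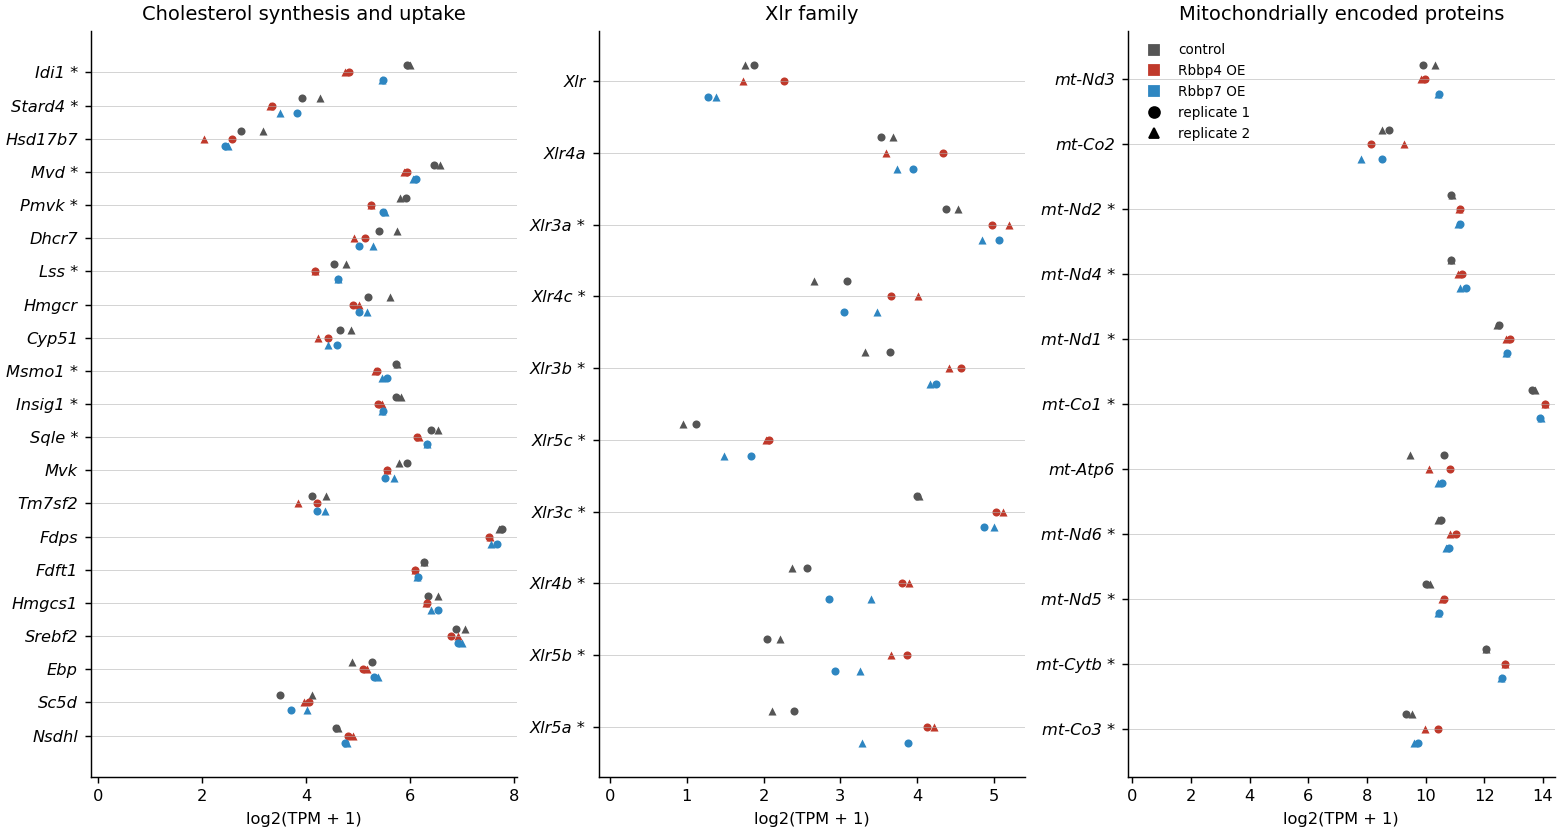
Level of 21 of the 23 tested genes of the cholesterol list (left) and of all those of the Xlr family (middle) and the mitochondrially encoded proteins (right) in each library, as log2(TPM + 1), with circles for replicate 1, triangles for replicate 2 and colors for the groups, ordered by fold change. A star marks the 8 genes shown in each panel that passed at a limma adjusted p under 0.05.

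Histone chaperones, the class to which RBBP4 belongs, changed mainly downwards where they passed the test. Of 18 tested, 8 fell, 1 rose and 9 did not pass, with a median of -0.28. Nap1l1, a nucleosome assembly protein, went from 555 and 591 TPM to 416 and 418 TPM and fell by 0.46 (limma adjusted p = 0.00797). Supt16, a subunit of the FACT complex, fell by 0.51, and Nap1l4, a homolog of Nap1l1, fell by 0.40 (limma adjusted p = 0.0172 and 0.0197). The member that rose was Npm1, which encodes nucleophosmin, from 4420 and 4645 TPM to 6040 and 6011 TPM (0.41, limma adjusted p = 0.00574), a value of 0.26 that no longer passed with quantile normalization (limma adjusted p = 0.0590). With median-of-ratios scaling 4 fell and 2 rose, and when 1 library was left out 0 to 8 fell.

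The complexes that contain RBBP4 changed in a few members each. Over all genes 3.21% rose and 8.98% fell, and the shares of NuRD and SIN3 genes that fell were near the latter. Of 10 PRC2 genes, 3 fell and 0 rose: Epop, an accessory protein of PRC2, went from 599 and 571 TPM to 400 and 379 TPM and fell by 0.59 (limma adjusted p = 0.00662), and the core subunits Suz12 and Ezh2 fell by 0.49 and 0.38 (limma adjusted p = 0.0211 and 0.0468). Of 12 NuRD subunits, Mta1 and Mbd3 rose by 0.44 and 0.24 (16.7% of the list) and the deacetylase Hdac1 fell by 0.35 (8.33%). Mbd3 was at 0.06 and did not pass with the GC and length correction (limma adjusted p = 0.417). Of 14 SIN3 genes, 0 rose and 1 fell (7.14%), the H3K4 demethylase Kdm5a (-1.0, limma adjusted p = 0.0258). Of 11 MuvB and DREAM genes, E2f4 fell by 0.58 and Lin54 by 0.64 while Lin37 rose by 0.36. With the GC and length correction Lin37 was at 0.22 and did not pass (limma adjusted p = 0.104). Of 16 genes of H3K9 methylation and heterochromatin, 3 fell, Cbx5, Fam208a and Trim28, by 0.17 to 0.50. With median-of-ratios scaling Trim28 was at -0.06 and did not pass, and with the GC and length correction Cbx5 (-0.25) and Fam208a (-0.30) did not. When 1 library was left out, 0 to 3 PRC2 genes and 0 to 1 NuRD subunits fell. None of 9 DNA methylation enzymes passed the test in limma, and none did so in the median-of-ratios fit except 1 that rose.

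Some genes of the cell cycle fell. Ccne2, cyclin E2 of the G1/S transition, had 8.18 and 12 TPM in the controls, 1.49 and 1.62 TPM with Rbbp4 OE and 5.17 and 4.77 TPM with Rbbp7 OE, and it fell by 2.10 (SE 0.20, limma adjusted p = 0.00679). Of 21 cyclins, CDKs and CDK inhibitors, 4 fell and 0 rose. Apart from Ccne2, these were the CDK inhibitor Cdkn1b (-0.88), Ccnd1 (-0.47) and Ccna2 (-0.35), so cyclins and an inhibitor were lower together. With median-of-ratios scaling 3 of this list fell and 1 rose, and when 1 library was left out 0 to 5 fell. Of 24 genes of replication licensing and firing, 5 fell and 0 rose, at a median of -0.18. The GINS subunit Gins2 went from 126 and 114 TPM to 69.4 and 67.3 TPM and fell by 0.80 (limma adjusted p = 0.00577), and the licensing factor Cdt1 and the helicase subunits Mcm6 and Mcm5 fell by 0.43, 0.53 and 0.26. With median-of-ratios scaling 4 of this list fell, without Mcm5 (-0.15), and when 1 library was left out 0 to 7 fell. The letters TTTNGCGC, one form of the E2F site, were in 3 of the 19 promoters of this list with an entry and in 2.38% of the tested genes. Another called decrease was Rpa1, a subunit of the single-stranded DNA-binding complex RPA, which went from 214 and 253 TPM to 110 and 110 TPM (named after its values were seen).

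Amino acid and metabolic genes changed in part. Psat1, of serine synthesis, went from 134 and 144 TPM to 65.3 and 66.0 TPM and fell by 1.07 (SE 0.066, limma adjusted p = 0.00244). Among 22 genes of the integrated stress response 5 fell and 2 rose, with the same counts under median-of-ratios scaling and 0 to 5 that fell when 1 library was left out. The members that fell serve amino acid supply, with Psat1, the transporters Slc7a5 (-0.76) and Slc7a3 (-0.45), and Phgdh and Aldh18a1, which were named after their values were seen. The members that rose were the transcription factor Cebpb (1.10, limma adjusted p = 0.0141) and the mTORC1 inhibitor Ddit4 (0.63; named after its values were seen). Of 18 glycolysis genes 4 fell and 1 rose, with median-of-ratios scaling 2 fell and 2 rose, and when 1 library was left out 0 to 6 fell. Slc2a3, the glucose transporter GLUT3, went from 533 and 594 TPM to 300 and 303 TPM and fell by 0.90 (limma adjusted p = 0.00348). Tpi1 fell by 0.66 and Ldha by 0.23 (-0.12 and not past the test with median-of-ratios scaling). Aldoa rose by 0.37 (0.23 with the GC and length correction). Another tested gene with the symbol Aldoa, at 3.45 and 3.68 TPM in the controls, was at -0.44 and did not pass (limma adjusted p = 0.28). No member passed among 14 genes of the unfolded protein response or 12 hypoxia genes in limma. With median-of-ratios scaling 1 gene of the unfolded protein response rose.

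**Figure D4:**
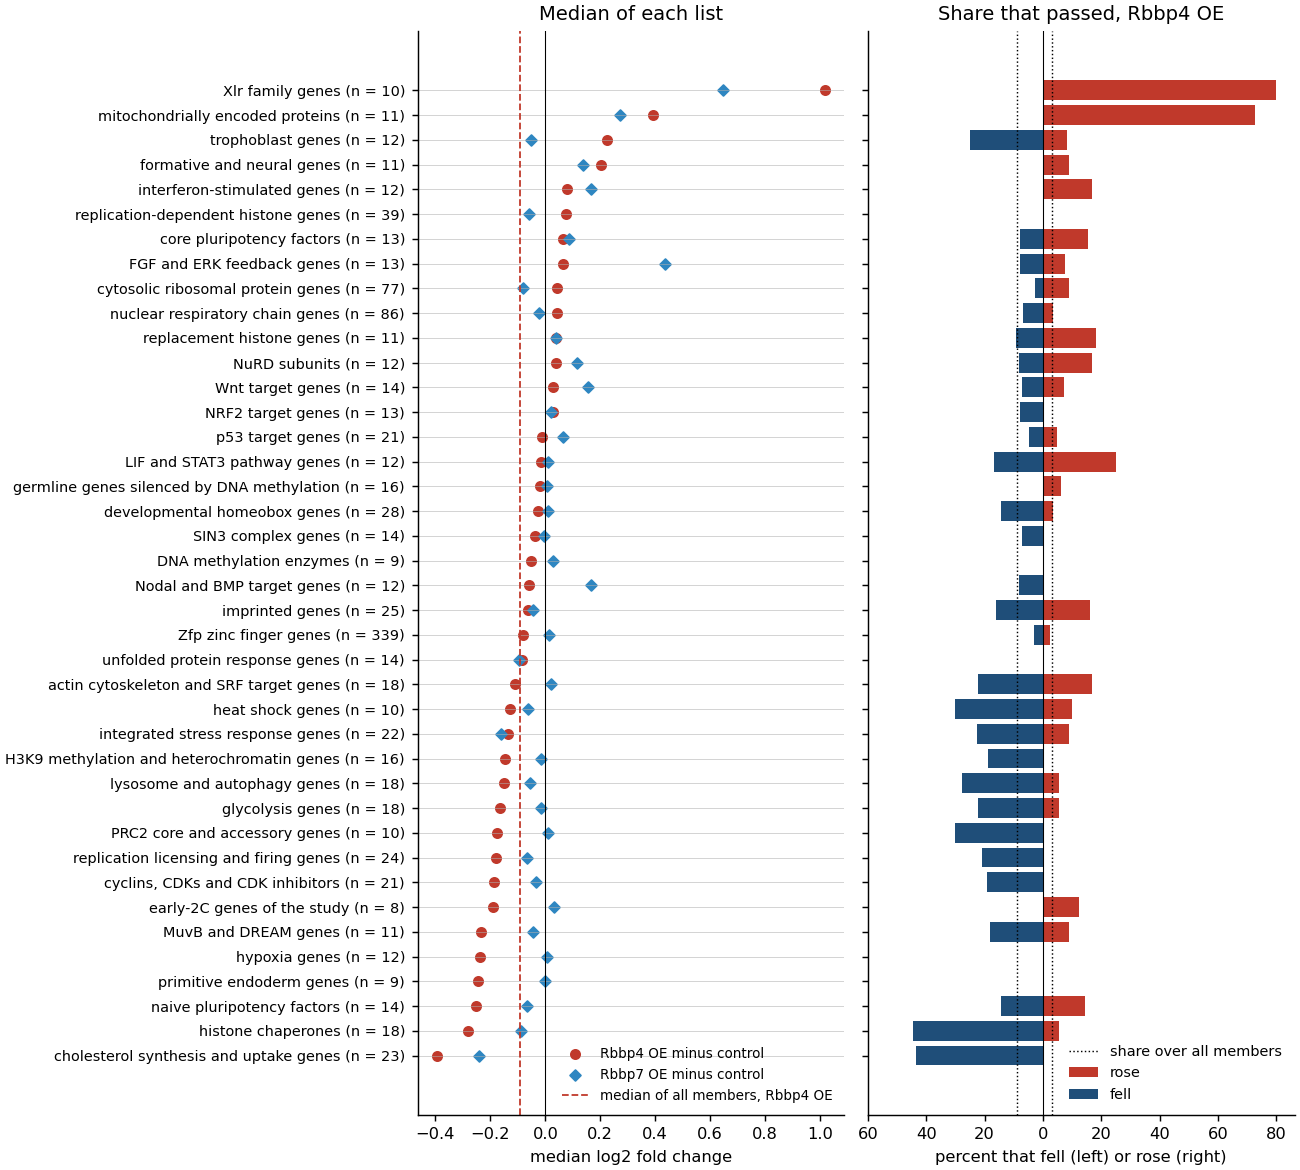
Left, median log2 fold change of each gene list with at least 8 genes tested, for Rbbp4 OE (red circles) and Rbbp7 OE (blue diamonds) against the same controls, with the median of all 12384 genes in Rbbp4 OE dashed. Right, percent of each list that rose (red, to the right) or fell (blue, to the left) in Rbbp4 OE at a limma adjusted p under 0.05, with the shares over all genes, 3.21% and 8.98%, dotted. The Xlr family stands at the top and the cholesterol list at the bottom.

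Pluripotency factors stayed high, and the few that passed moved by small amounts. Of 13 core factors, Utf1 rose by 0.46 and Pou5f1 by 0.25, and Nanog fell by 0.23 (limma adjusted p = 0.0102, 0.0334 and 0.0393). Whether these genes passed depended on the processing. With median-of-ratios scaling 0 core factors fell and 1 rose, with Nanog at -0.13 and past no threshold, and with the GC and length correction neither Utf1 (0.25) nor Pou5f1 (0.09) passed. Pou5f1 was at 1577 and 1455 TPM in the controls and at 1816 and 1781 TPM with Rbbp4 OE. Of 14 naive factors, Klf2 rose by 0.48 and Gbx2 by 0.66, and Fgf4 and Tfcp2l1 fell by 0.45 and 0.52. The median of the naive list was -0.25, against -0.09 for all genes, with 8 values negative and 6 positive. Klf2 was at 0.30 and Tfcp2l1 at -0.34 with the GC and length correction. Within the LIF and STAT3 list, Stat3 itself fell by 0.78 (limma adjusted p = 0.0255), from 43.8 and 58.4 TPM to 28.7 and 29.3 TPM. Bcl3 rose by 0.41, but with the GC and length correction it was at 0.23 and did not pass (limma adjusted p = 0.155).

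Lineage genes changed in both directions. Lefty2, a Nodal antagonist, had 93.5 and 104 TPM in the controls, 39.8 and 38.2 TPM with Rbbp4 OE and 80.7 and 87.2 TPM with Rbbp7 OE, and fell by 1.32 (SE 0.080, limma adjusted p = 0.00244). It was the only one of 12 Nodal and BMP targets that passed. Of 12 trophoblast genes, Tead4, a TEAD factor of the Hippo pathway, went from 26.3 and 30.0 TPM to 14 and 13.2 TPM and fell by 0.99 (limma adjusted p = 0.00797). Tfap2a and the imprinted gene Peg10 also fell (-1.02 each) and Tfap2c rose (0.44), so that 3 of the 12 fell and 1 rose. When 1 library was left out, 0 to 2 fell. No member passed among 9 primitive endoderm genes or among 3 mesendoderm genes in limma. The early-2C list holds published genes of the 2-cell stage, of which the study kept those raised in its RBBP4-depleted cells, not analysed here. Of 33 such genes matched, 25 were below the filter, and Sp5 was the only one of 8 tested that passed (0.61, limma adjusted p = 0.0130).

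Some neighboring genes of the HoxA cluster were lower. Hoxa10 (chromosome 6, 52231197 to 52240854) had 5.65 and 7.04 TPM in the controls, 0.98 and 1.07 TPM with Rbbp4 OE and 1.26 and 1.27 TPM with Rbbp7 OE, and fell by 1.85 (SE 0.18, limma adjusted p = 0.00726). Hoxa7 went from 4.54 and 6.76 TPM to 0.79 and 0.91 TPM (-1.83, limma adjusted p = 0.0124). Hoxa9 went from 7.05 and 9.98 TPM to 0.34 and 0.60 TPM (-2.68, SE 0.60, limma adjusted p = 0.0427). Its Rbbp7 OE libraries were uneven, at 2.85 and 0 TPM. Hoxa11, which also passed, fell by 0.91 and is named after its values were seen. Hoxa7, Hoxa9 and Hoxa10 were under 10 TPM in both controls, and their spans lie side by side. Of the 28 homeobox genes tested, 4 fell (14.3%, against 8.98% of all genes) and 1 rose, Gbx2 (3.57%, against 3.21%).

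Imprinted genes changed in both directions, including a pair of strong changes. Mest, a paternally expressed gene, had 13.6 and 13.8 TPM in the controls, 37.2 and 38.7 TPM with Rbbp4 OE and 40.1 and 39.6 TPM with Rbbp7 OE, and rose by 1.41 (SE 0.076, limma adjusted p = 0.00173). Grb10, an adaptor that restrains insulin and growth factor signaling, had 14.7 and 18.9 TPM in the controls and 2.16 and 2.84 TPM with Rbbp4 OE. It fell by 2.34 (SE 0.18, limma adjusted p = 0.00445). With Rbbp7 OE it had 4.86 and 5.27 TPM, a log2 fold change of -1.54, and the direct difference between the lines did not pass (limma adjusted p = 0.125). Snrpn rose by 0.60 and Peg10 fell by 1.02. Over the 25 imprinted genes tested, 4 rose and 4 fell.

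The cytoskeletal actins moved in opposite directions. Actb went from 1432 and 1472 TPM to 2236 and 1944 TPM and rose by 0.52 (limma adjusted p = 0.0137), and Actg1 went from 2040 and 2001 TPM to 1338 and 1362 TPM and fell by 0.58 (SE 0.036, limma adjusted p = 0.00244). Both kept these signs in every setting tried, but Actb missed the threshold when any 1 library was left out. Their transcripts are similar in sequence. Of the 18 genes of the actin and SRF list, 3 rose and 4 fell.

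The lower genes were not spread evenly over the genome. On chromosome 8, 134 of 673 genes fell (19.9%) and on chromosome 6, 103 of 565 (18.2%), against 8.98% of all genes, while on the other autosomes 4.20% to 11.3% fell. In windows of 10 Mb the excess lay in 2 stretches, chosen after these values were seen and so given with no test: chromosome 6 from 100 to 140 Mb and chromosome 8 from 90 to 130 Mb. In the first, 62 of 182 genes fell and 2 rose, and 81.9% of its genes had a negative value. In the second, 99 of 269 fell and 4 rose, and 79.2% had a negative value. Outside both stretches, 60.7% of the genes had a negative value. Of 210 windows with at least 20 genes, only 1 outside these stretches, on chromosome 4 from 50 to 60 Mb, had over 25% of its genes fall.

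The shift in these stretches was broad and of similar size in both Rbbp4 OE libraries. The median gene of the chromosome 6 stretch was at -0.35 and -0.32 in the Rbbp4 OE libraries, relative to the mean of the controls, and the controls themselves were at -0.03 and 0.03. The chromosome 8 stretch gave -0.38 and -0.35 in Rbbp4 OE and -0.05 and 0.05 in control. In Rbbp7 OE the same medians were -0.13 and -0.17 for chromosome 6 and -0.25 and -0.24 for chromosome 8. The rest of chromosome 6 had a median of -0.10 and the rest of chromosome 8 of -0.08, close to that of all genes. With GC content and transcript length corrected for, the stretches had medians of -0.29 and -0.35, and with median-of-ratios scaling -0.23 and -0.27, where the median of all genes was 0.00011.

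Several of the genes described above lie in these stretches. They held 161 of the 1112 genes that fell (14.5%) but 3.64% of all genes, and 6 of the 36 called decreases, among them Plekhg4 and Adipor2. Mvd, Gins2, Cdt1, E2f4, Slc2a3, Tpi1, Slc7a5, Cdkn1b, Kdm5a, Tead4, Nanog and Gapdh are there too, and the part of the stretches in those values was not tested. Calb2 is the 1 called increase inside. Without the stretches 391 genes rose, 951 fell and 46 were called.

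**Figure D5:**
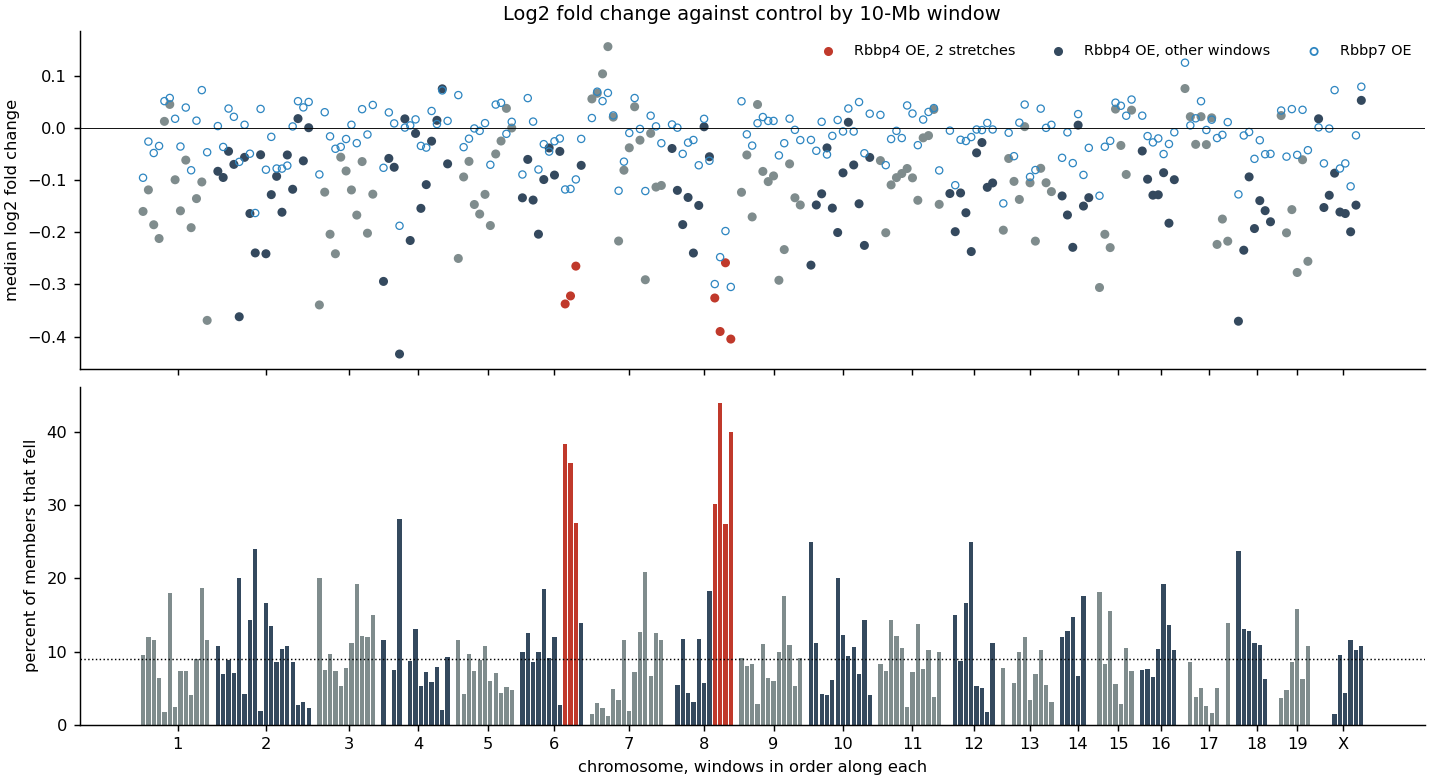
Median log2 fold change (top) and percent of genes that fell at a limma adjusted p under 0.05 (bottom) in Rbbp4 OE against control for each 10-Mb window with at least 20 protein-coding genes, in order along chromosomes 1 to 19 and X. Red marks the windows of the chromosome 6 and chromosome 8 stretches, blue rings give the Rbbp7 OE medians, and the dotted line is the 8.98% of all genes that fell.

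Transcript length and base composition also moved with the fold change. Over 5 equal groups of the genes by length of the longest transcript, the median went from 0.02 for the shortest (303 to 1880 nt) through -0.05, -0.10 and -0.14 to -0.20 for the longest (5099 nt and over). In the shortest group 164 genes rose (6.62%) and 129 fell (5.21%), and in the longest 26 rose (1.05%) and 217 fell (8.76%). The share that fell was highest in the group of 3771 to 5098 nt (11.75%), against 8.98% of all genes. In the longest group it was near that of all genes. The controls also differed from each other along this scale, since the longest group had a median of -0.11 in control replicate 1 and 0.11 in control replicate 2, relative to their mean. In Rbbp7 OE the medians of the 5 groups lay between -0.02 and -0.003. By GC content, the median went from -0.21 in the group of lowest GC to 0.06 in the highest. The median longest transcript was 2113 nt for genes that rose, 3532 nt for genes that fell and 3260 nt for all. Their part in the counts was not tested beyond the correction for both, under which 372 genes rose, 1005 fell and 49 were called.

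The last lists are large, abundant classes. Of 77 cytosolic ribosomal protein genes, 7 rose (9.09%, against 3.21% of all genes) and 2 fell, at a median of 0.04 that became 0.15 with median-of-ratios scaling and -0.05 with the GC and length correction. Across the settings 0 to 16 of them rose and 0 to 15 fell. None of 39 replication-dependent histone genes passed in limma or in the median-of-ratios fit. Of 339 Zfp zinc finger genes, 8 rose and 10 fell, below the shares over all genes. In bulk RNA, fewer cells of a kind and less RNA per cell cannot be told apart.

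The Rbbp7 OE line, measured against the same controls, serves here only to ask where Rbbp4 OE differed from it. Of the 53 called genes, 51 went in one direction in both lines and 50 were larger in size in Rbbp4 OE. In Rbbp7 OE against control, 21 of the 53 had a limma adjusted p under 0.05, against 55 of all 12384 genes (0.444%). The shared controls and the choice of genes on Rbbp4 OE tilt these counts. Tested directly, 11 of the 53 differed between the lines at a limma adjusted p under 0.05, against 27 of all 12384 genes (0.218%). This contrast reuses the Rbbp4 OE libraries on which the 53 were chosen. Of the 11, 9 were lower in Rbbp4 OE, among them Lefty2 (a difference of -1.09, SE 0.080, limma adjusted p = 0.0117), Pir (-1.64) and Bag2 (-1.36), and 2 were higher, 1700013H16Rik (1.67) and Trh (0.53). Mest did not differ detectably, at -0.07 (SE 0.076, limma adjusted p = 0.656), nor did Tesc at -0.05 (SE 0.16) or Hoxa10 at -0.16 (SE 0.18). When 1 library was left out, 0 or 1 of the 11 remained past the threshold.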

How the data were processed

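RNA-seq of 6 libraries was analysed: 2 control, 2 Rbbp4 OE and 2 Rbbp7 OE, assigned by their genotype labels. Per the study's methods, the authors used Trim_galore for trimming, STAR for alignment (mm10) and RSEM for quantification, and deposited 1 table of TPM values per library. TPM divides by transcript length and scales each library to a fixed total, so depth is unknown and no counting interval is given. A value of 0 may reflect a failed estimate.

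Gene names, types, coordinates, transcript lengths and GC content were taken from GENCODE M21 (GRCm38) by gene identifier, ignoring versions (55141 of 55401 genes, 54349 with the same version). The study names a later release. Genes with a mean of at least 0.5 TPM over the 6 libraries were fitted with limma-trend (limma 3.58.1, R 4.3.3) on log2(TPM + 1), with 1 mean per group and no covariate, leaving 3 residual and 3.103 prior degrees of freedom. This scale understates the change of low genes. The study used a count model, which TPM does not allow. P-values were two-sided and adjusted by Benjamini-Hochberg over all 14156 genes tested. Genes were called at an adjusted p under 0.01 and a fold over 2. "Rose" and "fell" mean an adjusted p under 0.05, whatever the fold. The fit was tested on simulated data with changes larger than most reported here, so that test does not bear on the small ones.

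Named genes were Rbbp4, Rbbp7, Gapdh, Actb, the 14 largest called increases and decreases and, for each of 42 gene lists, its called members and up to 4 members past an adjusted p of 0.05 with the smallest p. The genes described, the lists and the tests were chosen with earlier results of these data known. Some genes that met this rule are not reported here. No set test was run. Promoters are RefSeq sequences (GRCm38.p6), matched by symbol.

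Same-numbered replicates did not deviate together (correlations of -0.00037, 0.0078 and -0.021 across genes), so replicate numbers were not used as pairs. Alternatives were pseudocounts of 0.1 and 5, other filters, rescaling to long protein-coding genes, median-of-ratios scaling, quantile normalization, a GC and length correction, a replicate block, a 2-group fit, a robust trend, other thresholds and leaving out each library. The 2 stretches, the setting without them and the plasma protein list were chosen after seeing the data.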

Additional observations from a re-analysis of the deposited data

Results flagged for a closer look

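Genes are listed here because Rbbp4 OE and Rbbp7 OE, each measured against the same controls, differed in the direct limma test. The overexpressed genes are among them: Rbbp7 was 1.79 lower on the log2 scale in Rbbp4 OE than in Rbbp7 OE (a difference of -1.79, adjusted p = 8.31e-05) and Rbbp4 differed by 0.91 (adjusted p = 0.00192). Lower in Rbbp4 OE than in Rbbp7 OE were the Nodal antagonist Lefty2 (-1.09, adjusted p = 0.0117), the SUMO-targeted ubiquitin ligase Rnf4 (-0.73, adjusted p = 0.0239), Pir (-1.64, adjusted p = 0.0239) and Chtf8, a cohesion factor (-1.10, adjusted p = 0.0239). The same held for the serine protease Htra1 (-1.10, adjusted p = 0.0240), the membrane fusion ATPase Nsf (-0.72, adjusted p = 0.0354), Idi1 (-0.68, adjusted p = 0.0365) and Tead4 (-0.90, adjusted p = 0.0424). Bag2 (-1.36) had an adjusted p of 0.0466, and the ERK feedback gene Spry4 (-1.19) had one of 0.0499. Higher in Rbbp4 OE were 1700013H16Rik (1.67, adjusted p = 0.0239) and Trh (0.53, adjusted p = 0.0466). Chtf8 is the symbol of 2 overlapping tested genes, so its value is uncertain. Rnf4, Chtf8, Htra1 and Nsf are named after their values were seen.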

How the results depend on the processing

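All 53 called genes kept their sign in every alternative in which they were measured. Their choice for a fold over 2 in these same libraries made that likely. The 53 calls became 24 at a pseudocount of 5, 2 when low values were not filtered, 90 with only protein-coding genes over 300 nt in the fit, 0 in the 2-group fit, where 3451 genes had an unadjusted p under 0.05, then 144 at an adjusted p under 0.05 with a fold over 2, 171 at an adjusted p under 0.01 whatever the fold, and 0 to 16 when 1 library was left out. The 397 genes that rose became 174 with no filter, 638 with median-of-ratios scaling, 607 with quantile normalization, 39 in the 2-group fit and 10 to 296 when 1 library was left out. The 1112 that fell became 460, 690 (no filter and median-of-ratios scaling), 93 in the 2-group fit and 9 to 1171 when 1 library was left out. The Rbbp4 log2 fold change was 0.88 in the 2-group fit (limma adjusted p = 0.0336) and 0.876 to 0.885 when 1 library was left out, with an adjusted p above 0.01 in each. The 11 called genes that differed from Rbbp7 OE became 7 at a pseudocount of 5, 3 without the filter, 6 with median-of-ratios scaling, 7 with quantile normalization and 0 to 1 when 1 library was left out. Gapdh turned to 0.0057 under median-of-ratios scaling. The 2-group and leave-one-out fits have fewer residual degrees of freedom by construction, a lone library is assumed to vary like the others, and the cause of the other changes was not tested.

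With the replicate block, whose numbers did not pair the samples, 1 gene was called, 234 rose, 608 fell, Rbbp4 was at 0.88 (limma adjusted p = 0.0106) and 1 called gene differed from Rbbp7 OE. With the replicate block and the GC and length correction these were 1, 212, 583, 1.04 (limma adjusted p = 0.0115) and 0. With 2 libraries a group and no depth, a gene that did not pass is not shown to be unchanged. With a pseudocount of 5 the log2 fold changes of low genes were smaller by construction, for example -1.21 for Plekhg4 and -0.91 for Hoxa10.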
